A study of Bos taurus with 29 samples.

Results

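The genes FASN, SCD and DGAT1, which encode enzymes of fatty acid and triacylglycerol synthesis, are described here in the arcuate nucleus (ARC) of heifer calves reared on different planes of nutrition. They were chosen by Ensembl identifier alone, as ENSBTAG00000015980 (FASN), ENSBTAG00000045728 (SCD) and ENSBTAG00000026356 (DGAT1), and are 3 of the 24596 genes in the deposited table. The rule that fixed them uses no measured value, but the genes were chosen with earlier results of these data known.

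Fatty acid synthase, the product of FASN, assembles palmitate from acetyl-CoA and malonyl-CoA. Stearoyl-CoA desaturase, the product of SCD, converts saturated fatty acids such as palmitate and stearate to monounsaturated ones, of which oleate is a main component of membranes, myelin and stored fat. DGAT1 (diacylglycerol O-acyltransferase) joins a fatty acyl group to diacylglycerol, the last step of triacylglycerol synthesis. In the brain, fatty acid synthesis supplies the lipids of neuronal and glial membranes, and in cattle these genes are best known from work on milk fat and adipose tissue.

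RNA sequencing was carried out on the ARC, a hypothalamic nucleus in which metabolic signals are sensed, of 29 Angus x Holstein-Friesian heifer calves, with 1 library per calf. The 14 calves on the high plane of nutrition (HI) received 1.5 kg of milk replacer in 10 litres per day with free access to concentrates, and then concentrates without restriction and hay, for a target gain of 1.2 kg per day. The 15 calves on the moderate plane (MOD) received 0.5 kg of milk replacer in 4 litres per day with 1 kg of concentrates, and then the same amount of concentrates and hay, for a target gain of 0.5 kg per day. The milk phase of 8 weeks and the phase after weaning of 11 weeks were common to both diets, and all calves were sampled at 21 weeks of age. The sequenced calves had been selected as healthy and close to the mean gain of their diet, so that the spread between calves is that of a selected group. Library names join the diet to a running number that follows the sample records and carries no other meaning.

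Totals of reads assigned to genes, recovered from the deposited values, ranged from 11040026 to 20255414 per library, with a median of 14514318. They are not sequencing depths, and the paper reports a larger average number of reads generated per ARC sample. Each value is a number of reads scaled to an effective library size of 1000000, that is, to a library size corrected for composition. The libraries HI 9 and HI 13 stood apart from the others. On the first principal component of the 14165 tested genes, which held 37.9% of the variance, HI 9 had a score of -124.5 and HI 13 a score of -62.9. The size factor of HI 9 was 0.803, the lowest of the 29 libraries. Results that rest on these libraries are therefore given with and without them. The tissue was not checked against marker genes of ARC neurons, glia or pituitary here, since gene names were taken from the deposited table and the RefSeq gene table alone, neither of which pairs these identifiers with names. The column of MOD 3 ends in another letter than those of the other 28 calves, and the meaning of the letters is not given in the sources used here. Values of MOD 3 are therefore given as those of the library so labelled.

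FASN was covered by 6127 to 12417 reads per library, SCD by 188 to 3622 reads and DGAT1 by 580 to 1346 reads. Counting error alone corresponds to a coefficient of variation of 1.09% for FASN, 2.59% for SCD and 3.61% for DGAT1, whereas the values varied across the 29 calves by 14.1%, 29.5% and 20.5%. These counting errors treat reads as independent molecules. Levels are not compared between genes, because transcript lengths in the build used by the authors were not analysed here. In the RefSeq annotation of a later bovine assembly, the DGAT1 locus overlaps that of HSF1 (a transcription factor of the heat shock response), and the FASN locus holds the microRNA gene MIR10179. No annotated gene overlaps SCD, whose nearest neighbour is PKD2L1. Whether strand was used in the counting is not given in the sources used here, so that reads of DGAT1 and HSF1 in the shared stretch may not be told apart.

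The first question was whether the plane of nutrition changed the expression of these genes. FASN, the enzyme that makes palmitate, had values in HI calves from 424 in HI 13 to 702 in HI 14, with a median of 603. In MOD calves the values ranged from 518 in MOD 6 to 849 in MOD 1, with a median of 581. The ranges overlapped in part, with 12 of 14 HI calves within the MOD range. HI 13 and HI 9 lay below it, at 424 and 460, and 2 MOD calves, MOD 8 (735) and MOD 1 (849), lay above the highest HI calf. Mean FASN values were 592 ± 76.2 (SD, n = 14 HI calves) and 612 ± 94.1 (SD, n = 15 MOD calves). The log2 fold change of FASN was -0.05, with a standard error of 0.077 and a 95% confidence interval of -0.20 to 0.11 (limma on log2(value + 1), unadjusted p = 0.563, Benjamini-Hochberg adjusted p = 0.814 over 14165 genes). Without HI 9 and HI 13 the log2 fold change of FASN was 0.02, with a 95% confidence interval of -0.11 to 0.16, so that its sign depended on these libraries.

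SCD, the desaturase, had the widest relative range of the 3 genes, with a highest value 15.7-fold the lowest. Its values in HI calves ran from 14.1 in HI 9 and 42.8 in HI 13 to 222 in HI 1, with a median of 140.5. In MOD calves they ran from 99.2 in MOD 2 to 208 in MOD 3, with a median of 172. Leaving aside HI 9 and HI 13, the lowest HI value was 118, in HI 4, which is above the lowest MOD value. The groups overlapped, with 11 of 14 HI calves inside the MOD range, but 12 of 14 lay below the MOD median. Mean SCD values were 132 ± 51.5 (SD, n = 14 HI calves) and 164 ± 29.1 (SD, n = 15 MOD calves). The log2 fold change of SCD was -0.49, with a standard error of 0.253 and a 95% confidence interval of -1.01 to 0.02 (limma, unadjusted p = 0.0595, Benjamini-Hochberg adjusted p = 0.63). A two-sided permutation test of the diet labels on SCD alone gave p = 0.0399, without adjustment for the number of genes, and p = 0.208 without HI 9 and HI 13. Without HI 9 and HI 13 the log2 fold change was -0.13, with a 95% confidence interval of -0.34 to 0.07 (limma, unadjusted p = 0.19), although 10 of the 12 remaining HI calves still lay below the MOD median. Most of the estimate thus rested on these 2 libraries, with HI 9 the larger contributor (-0.27 without it, and -0.39 without HI 13 alone). Without MOD 3, which had the highest MOD value, the log2 fold change of SCD was -0.47. In bulk tissue, fewer cells that express SCD and less SCD RNA per cell cannot be told apart.

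DGAT1, the enzyme of the last step to triacylglycerol, was displaced in the other direction. Its values in HI calves ranged from 46.5 in HI 11 to 101 in HI 9, with a median of 55.9, and the second highest was 75.1 in HI 13. In MOD calves the values ranged from 44.1 in MOD 7 to 61.0 in MOD 15, with a median of 49.4. The groups overlapped, with 4 of 14 HI calves above the highest MOD calf and 10 within the MOD range. The 2 of these 4 that did not stand apart on the first component were HI 2 (67.5) and HI 8 (64.6). Mean DGAT1 values were 59.5 ± 14.5 (SD, n = 14 HI calves) and 51.2 ± 4.99 (SD, n = 15 MOD calves). The log2 fold change of DGAT1 was 0.19, with a standard error of 0.086 and a 95% confidence interval of 0.01 to 0.36 (limma, unadjusted p = 0.0392, Benjamini-Hochberg adjusted p = 0.63). Without HI 9 and HI 13 it was 0.09, with a 95% confidence interval of -0.03 to 0.21 (limma, unadjusted p = 0.148). The permutation test on DGAT1 alone gave p = 0.0325 with all libraries and p = 0.142 without those 2, again without adjustment for the number of genes.

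**Figure D1:**
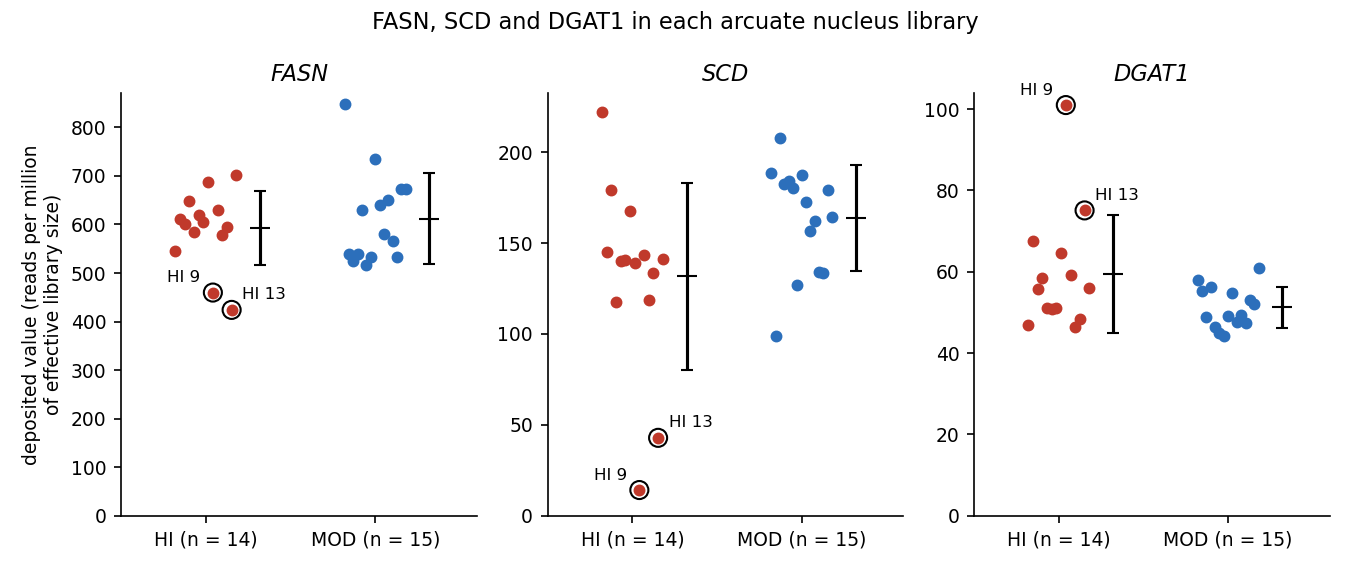
Each point is 1 library, placed by diet (horizontal axis) and by its value in reads per 1000000 reads of effective library size (vertical axis), with the mean and SD of each diet as a bar beside the points. HI 9 and HI 13, circled, hold the lowest FASN and SCD values and the highest DGAT1 values, while the remaining HI points lie among or close to the MOD points.

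None of the 3 genes was called between the diets at a Benjamini-Hochberg adjusted p below 0.10 and a fold change above 1.5, and across the whole table limma called 0% of the 14165 genes. At an unadjusted p below 0.05, 797 genes passed in limma (5.63%), with 472 of them higher in HI (3.33%) and 325 lower (2.29%). DGAT1 was the single one of the 3 genes among them, and 4.18% of all genes had a p as small as that of DGAT1. For SCD this share was 7.31% and for FASN 69.2%. In absolute size, the log2 fold change of SCD was matched or exceeded by 1.20% of the tested genes, that of DGAT1 by 24.1% and that of FASN by 76.7%. These places are those of the limma estimates with all libraries, of which that of SCD was -0.49. Count models on recovered reads gave SCD a smaller log2 fold change, of -0.31 by the edgeR exact test, -0.31 by the edgeR quasi-likelihood test and -0.32 by DESeq2. On the recovered reads, the edgeR exact test and DESeq2 each called 1 gene, the edgeR quasi-likelihood test called 0, and none of the 3 genes was called by any of these tests. The paper reported many more differing genes in the ARC with an edgeR exact test, and the cause of this gap was not tested. When HI 9 and HI 13 were left out, limma called 0 genes, 2.67% of genes had an unadjusted p below 0.05, and no member was among them.

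**Figure D2:**
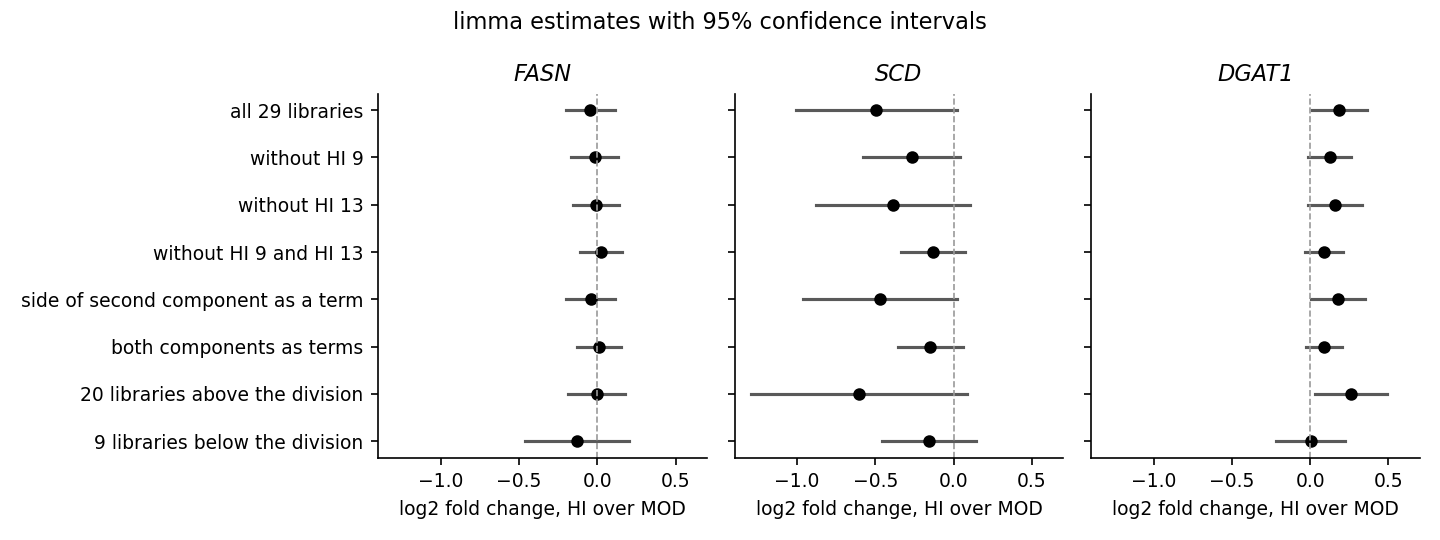
Points give the log2 fold change of HI over MOD from limma on log2(value + 1) (horizontal axis) and lines its 95% confidence interval, for the libraries or terms named at the left. The SCD estimate moves from -0.49 with all libraries to -0.13 without HI 9 and HI 13, the DGAT1 estimate from 0.19 to 0.09, and the FASN estimate from -0.05 to 0.02. Among the 9 libraries below the division, the FASN estimate is -0.13 with an interval of -0.46 to 0.20.

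HI 9 and HI 13 were then compared with the other 12 HI calves, as a description without a test, since these libraries were chosen because their expression stood apart. SCD in HI 9 was 10.0-fold below the median of the other 12 HI calves (14.1 against 141), based on 188 reads with a 95% Poisson interval of 12.2 to 16.3 for the value. In HI 13 it was 3.29-fold below that median, with a value of 42.8 and an interval of 39.5 to 46.3. Falls of at least this size on the log2 scale were found in 1.00% of the tested genes in HI 9 and in 2.52% in HI 13, which places SCD among the genes with the deepest falls in both libraries. FASN in the same libraries was lower by a log2 difference of -0.40 in HI 9 and -0.52 in HI 13, and falls at least as large were common, in 37.6% and 25.3% of the genes. DGAT1 was higher by a log2 difference of 0.91 in HI 9 and 0.48 in HI 13, and rises at least as large were found in 14.6% and 19.9% of the genes. The median absolute difference of all tested genes was 0.71 in HI 9 and 0.45 in HI 13, so that differences in these libraries were spread over many genes.

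That HI 9 and HI 13 held the extreme values did not depend on the size factors. When reads were divided by the total of the library alone, HI 9 had values of 369 for FASN, 11.3 for SCD and 81.1 for DGAT1. HI 13 had values of 409.7 for FASN, 41.4 for SCD and 72.5 for DGAT1. These remained the 2 lowest libraries in FASN and SCD and the 2 highest in DGAT1, although HI 9 and not HI 13 was then the lowest in FASN. By limma-voom with sample quality weights, which weighs down libraries that fit the model poorly, HI 9 was weighted by 0.050 and HI 13 by 0.140. Under these weights the log2 fold changes were 0.06 for FASN, -0.10 for SCD and 0.12 for DGAT1, and the smallest of their adjusted p-values was 0.534.

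**Figure D3:**
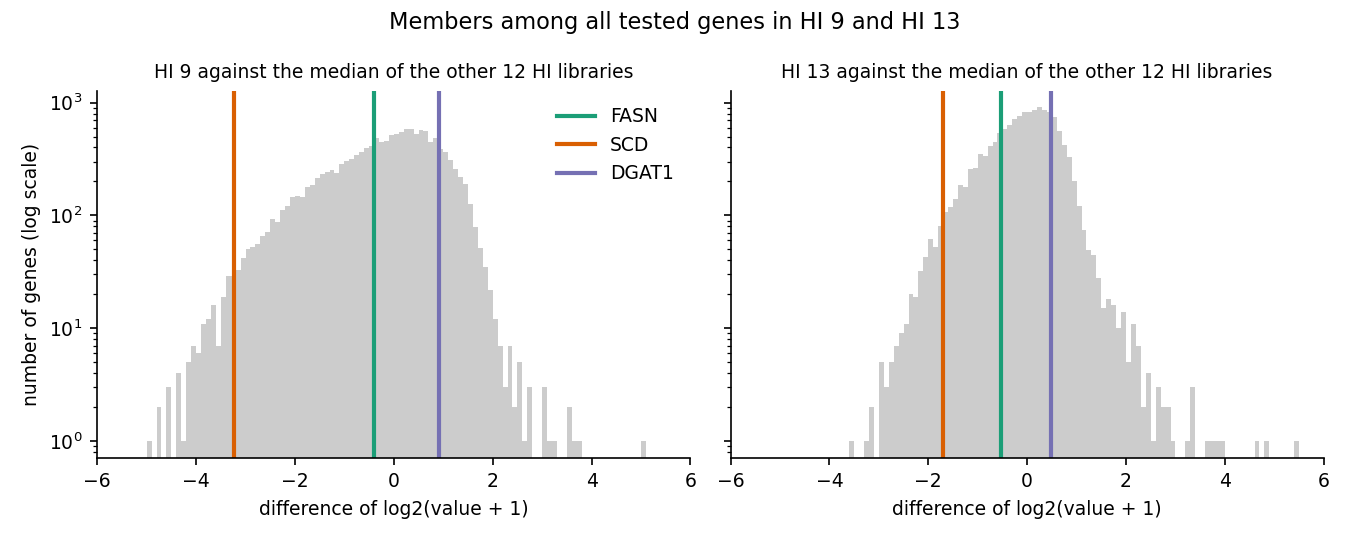
The grey histograms count tested genes (vertical axis, log scale) by the difference of log2(value + 1) between 1 library and the median of the other 12 HI libraries (horizontal axis). In HI 9 the SCD line stands at -3.23, with 1.00% of genes at or beyond it, and in HI 13 at -1.70, while the FASN and DGAT1 lines fall within the bulk of the genes.

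The genes were also compared as ratios within a library. The values of a library share 1 scaling factor, which a plain ratio removes. The tested log2 ratios were taken on value + 1 and keep a small part of it, so that the ratio of DGAT1 to SCD in HI 9 was 6.75 with the added 1 and 7.16 without. The plain ratio of DGAT1 to SCD ranged in HI calves from 0.211 in HI 1 to 7.16 in HI 9, with a median of 0.394, and was 1.75 in HI 13. In MOD calves it ranged from 0.235 in MOD 3 to 0.556 in MOD 2, with a median of 0.308. The ratio lay above the MOD median in 12 of 14 HI calves. The mean log2 ratio was higher in HI than in MOD by 0.68, with a standard error of 0.346 (two-sided permutation test with 100000 resamples, p = 0.0154, and 0.0461 after Benjamini-Hochberg adjustment over the 3 ratios). With a pseudocount of 0.1 the difference was 0.69 (permutation test, adjusted p = 0.0458). This rested in large part on HI 9 and HI 13, since the difference without them was 0.22 with a standard error of 0.125 (permutation test, p = 0.0835, adjusted p = 0.251), although 10 of 12 HI calves remained above the MOD median. When single libraries were left out, the adjusted p ran from 0.00507 without HI 1 to 0.103 without HI 9, so that the call turned on which calf was left out. Without MOD 3, the calf with the lowest MOD ratio, the adjusted p was 0.0691.

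The ratio of SCD to FASN, desaturase over synthase, was 0.0307 in HI 9 and 0.101 in HI 13, and ranged from 0.182 to 0.407 in the other HI calves and from 0.184 to 0.396 in MOD calves. The mean log2 ratio differed by -0.45 between HI and MOD, with a standard error of 0.240 (permutation test, p = 0.0344, adjusted p = 0.0516), and by -0.16 without HI 9 and HI 13 (permutation test, p = 0.177). The ratio of DGAT1 to FASN was 0.220 in HI 9 and 0.177 in HI 13, above the range of 0.0798 to 0.110 in the other HI calves and of 0.0668 to 0.104 in MOD calves. Its mean log2 difference between the diets was 0.23 (permutation test, p = 0.0682, adjusted p = 0.0682) and became 0.07 without HI 9 and HI 13 (permutation test, p = 0.328).

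**Figure D4:**
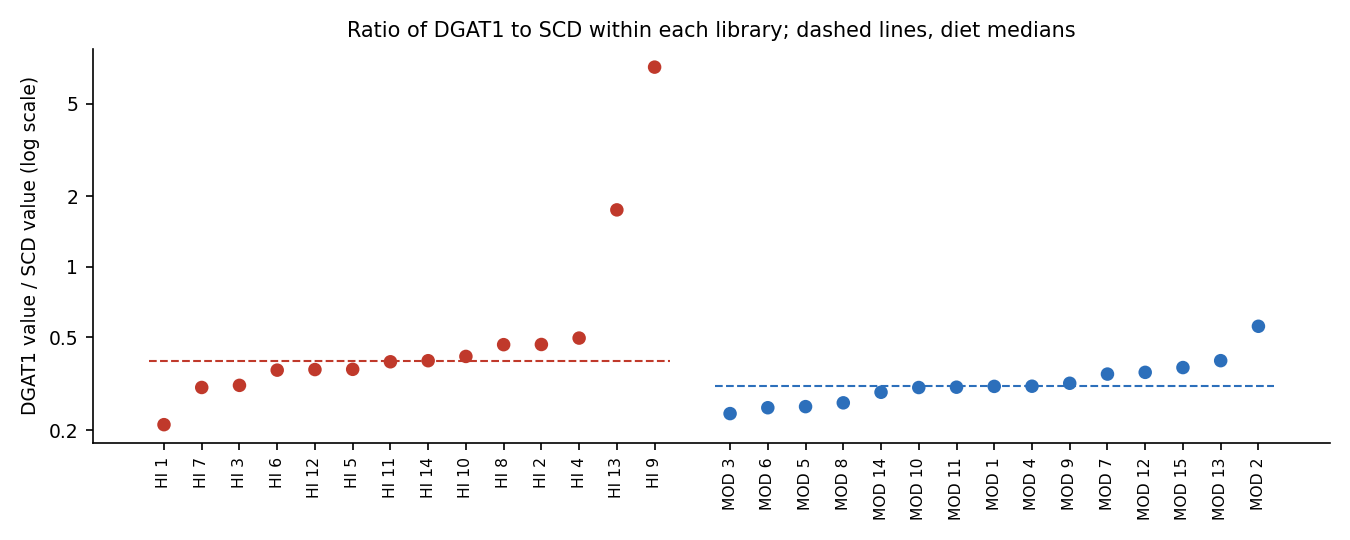
The value of DGAT1 divided by that of SCD is plotted on a log axis for each library (horizontal axis, ordered within each diet), with dashed lines at the diet medians of 0.394 (HI) and 0.308 (MOD). HI 13 (1.75) and HI 9 (7.16) lie above every other library, of which the highest is MOD 2 (0.556).

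The second question was whether the 3 genes rose and fell together across calves of the same diet. Pearson's r was computed on log2(value + 1) for the 3 pairs within each diet, with two-sided permutation p-values from 100000 resamples adjusted over the 6 correlations. In HI calves FASN and SCD had r = 0.721 (n = 14, permutation p = 0.0113, adjusted p = 0.0339), and SCD and DGAT1 had r = -0.852 (n = 14, permutation p = 0.0016, adjusted p = 0.0096). FASN and DGAT1 had r = -0.509 (n = 14, permutation p = 0.0659, adjusted p = 0.132). By ranks these relations were far weaker, with Spearman's rho of 0.244 for FASN and SCD (permutation p = 0.400), -0.323 for SCD and DGAT1 (permutation p = 0.259) and 0.108 for FASN and DGAT1 (permutation p = 0.718). All adjusted p-values of the rank correlations were at least 0.498.

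The correlations in HI rested on HI 9 and HI 13, which were also the 2 libraries farthest from the median on the horizontal measure of each pair. Without them, r became -0.443 for FASN and SCD (n = 12, permutation p = 0.150, adjusted p = 0.225) and -0.194 for SCD and DGAT1 (n = 12, permutation p = 0.553, adjusted p = 0.664). FASN and DGAT1 turned from a negative to a positive relation, with r = 0.651 (n = 12, permutation p = 0.0203, adjusted p = 0.122) and rho = 0.755 (permutation p = 0.00607, adjusted p = 0.0364). Among the 12 HI calves that did not stand apart, those with more synthase RNA tended to have more DGAT1 RNA. This passed the threshold of 0.05 by ranks and not by Pearson's r. HI 9 and HI 13 held the lowest FASN and the highest DGAT1 values, so leaving them out moves this correlation upward by construction. The rank test without them was added after seeing the data, and rho with all 14 HI calves was 0.108. The positive relation is therefore given as a description. Leaving out 1 of the 2 libraries did not change any sign, and r for FASN and SCD was 0.637 without HI 9 and 0.664 without HI 13, neither of which passed after adjustment (unadjusted permutation p = 0.0736 and 0.0712). For SCD and DGAT1 it was -0.616 without HI 9 (permutation test, adjusted p = 0.143) and -0.830 without HI 13 (permutation test, adjusted p = 0.136).

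In MOD calves, where no library stood apart on the first component, Pearson's r was closer to 0 than in HI for the 3 pairs. By ranks, rho was larger in MOD than in HI for FASN and DGAT1 (0.464 against 0.108) and for FASN and SCD (0.289 against 0.244), and no test of the difference passed. FASN and DGAT1 had r = 0.418 (n = 15, permutation p = 0.121, adjusted p = 0.160), and the permutation p of rho was 0.0831. Without MOD 1 and MOD 8, the calves with the highest FASN, r was 0.361. FASN and SCD had r = 0.406 (n = 15, permutation p = 0.133, adjusted p = 0.160), and r was 0.276 without MOD 1 and MOD 8 and 0.560 without MOD 3. No relation of SCD and DGAT1 was detected at this number of calves, with r = 0.016 and a 95% confidence interval of -0.50 to 0.52 (n = 15, permutation p = 0.955). None of the MOD correlations passed the threshold. The positive sign of FASN with DGAT1 was common to the 15 MOD calves and the 12 HI calves. Over all 27 of them, after centring on the diet mean, r was 0.450. This value is given as a description, since leaving out HI 9 and HI 13 moves it upward by construction. It was also added after seeing the data. Over all 29 calves centred in the same way, the correlation of FASN and DGAT1 had the opposite sign, with r = -0.182 (permutation p = 0.339).

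**Figure D5:**
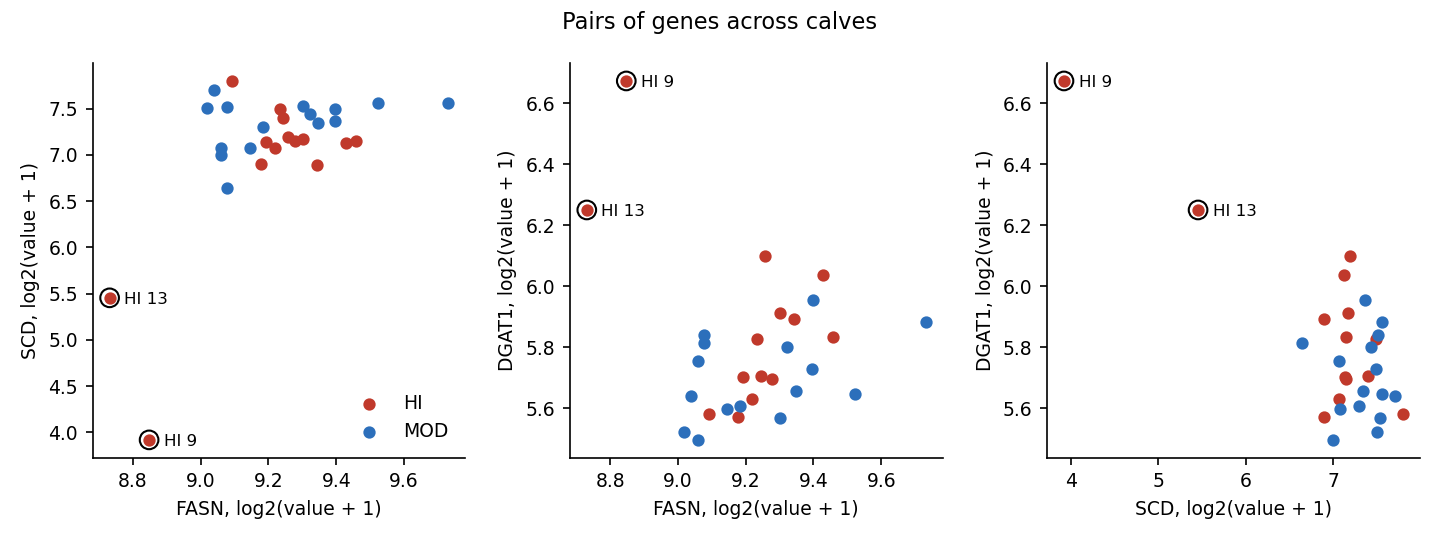
Each point is 1 calf, with log2(value + 1) of 1 gene on each axis and the diet by colour. HI 9 and HI 13, circled, lie far from the other points in every pair, and they carry the HI correlations of 0.721 for FASN and SCD and -0.852 for SCD and DGAT1.

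The difference between the correlations of the diets was tested itself, by permuting the diet labels over values centred on their diet mean. It did not pass for FASN and SCD (permutation p = 0.321), FASN and DGAT1 (permutation p = 0.130) or SCD and DGAT1 (permutation p = 0.107), and all adjusted p-values were at least 0.195. Without HI 9 and HI 13 the smallest was that for FASN and SCD, with r = -0.443 in HI and 0.406 in MOD (permutation p = 0.0734, adjusted p = 0.220). A difference in correlation between the planes of nutrition was therefore not shown.

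The spread between calves was compared on the log2 scale as well. The SD of SCD was 0.99 in HI and 0.28 in MOD, a 3.53-fold ratio (permutation p = 0.0978, adjusted p = 0.147 over the 3 genes), and that of DGAT1 was 0.30 in HI and 0.14 in MOD, a 2.22-fold ratio (permutation p = 0.0309, adjusted p = 0.0928). FASN had an SD of 0.20 in HI and 0.21 in MOD (permutation p = 0.879). By the median absolute deviation, which extreme calves move little, the ratio of HI to MOD was 0.453 for FASN (permutation p = 0.0315, adjusted p = 0.0946), 1.29 for SCD (permutation p = 0.786) and 1.73 for DGAT1 (permutation p = 0.136). None of these differences passed after adjustment. Without HI 9 and HI 13 the ratio of SDs was 0.495 for FASN, 0.899 for SCD and 1.26 for DGAT1, which is given as a description with no test, since leaving out the most extreme HI calves lowers the HI spread by construction. Beside the dispersion of other genes in edgeR, the biological coefficient of variation of SCD was 39.0% with all libraries, above the median of 22.9%, and 18.4% without HI 9 and HI 13, close to the median of 17.0%. FASN (15.5% and 13.2%) and DGAT1 (17.6% and 11.5%) were below the median in both cases.

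A second pattern moved with SCD. On the second principal component, which held 20.6% of the variance, 9 libraries (4 HI and 5 MOD) had scores below -15 and 20 had scores above it, a division taken from an earlier account of these data. SCD had a mean of 180 ± 27.0 in the 9 libraries below the division (SD, n = 9) and of 146 ± 23.9 in the 18 above it that remained without HI 9 and HI 13 (SD, n = 18). The same order of means was found in both diets, with 171 ± 38.9 in 4 HI calves below the division against 138 ± 16.0 in the 8 above it without those libraries, and with 187 ± 13.1 in 5 MOD calves against 152 ± 28.1 in 10. In HI the order rested on HI 1 (222) and HI 3 (179). HI 5 (140.1) and HI 6 (140.9) lay close to the median of those 8 calves (140.2). No test is given, since the division was made from the expression of the same calves, and the part of this pattern in the diet comparison was examined by fitting it as a term. The log2 fold changes were then -0.04 for FASN, -0.47 for SCD and 0.18 for DGAT1, close to those without the term. The diets were present in similar numbers on each side, so this term could move the estimates little. Among the 9 libraries below the division the log2 fold change of SCD was -0.16 with a 95% confidence interval of -0.46 to 0.14, and that of DGAT1 was 0.00 with an interval of -0.22 to 0.22. That of FASN was -0.13 with an interval of -0.46 to 0.20. Among the 20 above the division, which include HI 9 and HI 13, the log2 fold changes were -0.004 for FASN, -0.61 for SCD and 0.26 for DGAT1. With the scores on both components as terms they were -0.15 for SCD and 0.09 for DGAT1. The components come from the same expression values, and HI 9 and HI 13 stood apart on the first. That fit is therefore not separate from leaving these libraries out, which gave -0.13 for SCD and 0.09 for DGAT1. FASN and DGAT1 did not differ between the sides by more than the spread between calves, with means of 624 ± 107.6 (SD, n = 9) and 609.6 ± 55.6 (SD, n = 18) for FASN and of 51.1 ± 4.28 (SD, n = 9) and 53.6 ± 6.66 (SD, n = 18) for DGAT1, again without HI 9 and HI 13.

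Each gene was finally compared with all other tested genes by Pearson's r of diet-centred log2 values over the 29 libraries, as a description with no test. The genes most like FASN were ENSBTAG00000014265 (r = 0.810) and ENSBTAG00000017871 (r = 0.773), and those most opposed to it were ENSBTAG00000013627 (r = -0.799) and ENSBTAG00000017196 (r = -0.786). Without HI 9 and HI 13 these became 0.754 for ENSBTAG00000014265, 0.625 for ENSBTAG00000017871, -0.689 for ENSBTAG00000013627 and -0.684 for ENSBTAG00000017196. Since these genes were picked as the extremes over libraries that include the same remaining calves, high values there follow in part from the choice. FASN thus followed few genes closely, and only 0.318% of the 14164 other genes had an r beyond 0.7 in either direction. SCD reached an r beyond 0.7 with 24.1% of the genes and DGAT1 with 12.9%, and these shares fell to 0.113% and 0.0424% without HI 9 and HI 13 (FASN, 0.155%). Among the partners of FASN, SCD was matched or exceeded by 3.39% of the genes with all libraries and by 23.8% without HI 9 and HI 13, whereas DGAT1 was matched or exceeded by 67.1% and then by 4.57%. Which of the other 2 enzymes FASN resembled most across calves therefore changed with the presence of these 2 libraries.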

How the data were processed

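Total RNA of the ARC was sequenced as stranded, polyadenylated libraries, 1 per calf. Per the labels and the methods of the study, the authors removed adapters with cutadapt 2.6, aligned with STAR (genome build UMD3.1), took gene counts from its quantification mode and normalized in edgeR with the trimmed mean of M-values. The deposited signal holds these counts per 1000000 reads of effective library size. Dividing each column by the value of 1 read recovered whole reads for 100% of its values above 0 (within 0.01 reads). Libraries were assigned to HI or MOD by the diet in their sample record, and columns to calves by the number in the title. After that number, 28 columns carry the same letter and 1, that of MOD 3, another. No pair of libraries of the same diet agreed within sampling noise (smallest chi-square per degree of freedom 8.95 over 196 pairs).

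A gene was kept where 14 or more libraries had a value above 1 (14165 of 24596), and was tested with limma 3.58.1 in R 4.3.3 (lmFit, eBayes with a trend) on log2(value + 1), without covariates. Fold changes are on that scale and understate those of low genes. Calls needed a Benjamini-Hochberg adjusted p below 0.10 and a fold change above 1.5. edgeR 4.0.16, DESeq2 1.42.0 and limma-voom were run on recovered reads as alternatives. Correlations, ratios and spreads used two-sided permutation tests in Python 3.11.15 with numpy 2.4.6 (100000 resamples). The scripts were tested on simulated data.

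The members, lists and alternatives were chosen with earlier results of these data known. The table gives identifiers without names. The names of the 3 genes came with their identifiers, and 0 identifiers matched the RefSeq gene table, so that planned lists of lipid genes and cell type markers were not analysed. Other genes were named by rule as the 2 most and 2 least like FASN.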

Additional observations from a re-analysis of the deposited data

How the results depend on the processing

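The estimates of SCD and DGAT1 had the same sign in 18 of 18 alternatives each, with log2 fold changes from -0.61 to -0.10 and from 0.00 to 0.26. The lowest for DGAT1, from the libraries below the division alone, had an interval of -0.22 to 0.22, so that no direction was shown there. Most alternatives score the same calves again, and the permutation tests repeat the limma estimates, so the count of signs is a description. No alternative called any of the 3 genes. Adjusted p-values over all genes were at least 0.468. The log2 fold change of FASN reversed to 0.0234 in limma and in the permutation test without HI 9 and HI 13, to 0.0122 in the edgeR quasi-likelihood test without them, to 0.0107 with both components as terms and to 0.0588 in limma-voom with quality weights, and was never called. Leaving out each library in turn gave -0.06 to -0.01 for FASN, -0.57 to -0.27 for SCD and 0.12 to 0.21 for DGAT1.

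The correlations in HI kept sign and side of the threshold with a pseudocount of 0.1, library size alone, RLE size factors, residuals after the second component's division, and above the division alone. For FASN and SCD, r was 0.244 by ranks, -0.443 without HI 9 and HI 13, -0.196 by ranks without them, -0.220 after both components, and 0.079 above the division without them. For SCD and DGAT1 the values in the same order were -0.323, -0.194, 0.077, 0.021 and 0.197, and for FASN and DGAT1 they were 0.108, 0.651, 0.755, 0.511 and 0.559. Leave-one-out ranges in HI were 0.637 to 0.804, -0.895 to -0.616 and -0.595 to -0.224 for these pairs, and the first 2 pairs no longer passed the threshold without HI 9 or without HI 13. In MOD they were 0.354 to 0.560 for FASN and SCD, 0.255 to 0.513 for FASN and DGAT1, and -0.144 to 0.242 for SCD and DGAT1, which was -0.199 with library size alone.

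The difference of Fisher z between the diets for FASN and SCD was 0.479, and reversed to -0.049 by ranks and -0.906 without HI 9 and HI 13. For FASN and DGAT1 it was -1.01, and 0.333 without those libraries. Without HI 9 alone or HI 13 alone the values were 0.322 and 0.369 for FASN and SCD, -0.673 and -0.865 for FASN and DGAT1, and -0.735 and -1.20 for SCD and DGAT1. The log2 ratio of DGAT1 to SCD differed by 0.22 without HI 9 and HI 13, and by 0.39 to 0.78 in leave-one-out, where 18 of 29 fits lost the call. That of SCD to FASN was -0.53 to -0.25, with 10 fits past the threshold, and that of DGAT1 to FASN 0.14 to 0.25, with 5. The log2 ratio of SDs without HI 9 and HI 13 was -1.01 for FASN and -0.15 for SCD, where leaving out extreme HI calves lowers the HI spread by construction. Without HI 9 alone or HI 13 alone it was -0.22 and -0.45 for FASN, 0.95 and 1.75 for SCD, and 0.61 and 1.11 for DGAT1.

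Limma called 0 genes, and the exact test and DESeq2 called 1 each. Genes at an unadjusted p below 0.05 numbered 797, and 1321 in limma-voom with quality weights, 378 in limma and 413 in the quasi-likelihood test without HI 9 and HI 13, 177 below the division, where fewer samples were tested, and 458 to 1327 in leave-one-out. The cause of the remaining changes was not tested. Fits without HI 9 or HI 13 alone for the differences of correlation and the spreads, those without HI 9 and HI 13 by permutation, ranks, the quasi-likelihood test or above the division, and the centred correlations over both diets were added after seeing the data. No paired analysis was possible because the labels give no numbers that pair calves across the diets. The paper states that calves were placed in blocks of like age, weight, sire and farm before allocation to the diets. The labels do not give these blocks, so no test here took them into account.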

Other observations

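The gene most like SCD was ENSBTAG00000047957, named here after its values were seen. Its r with SCD was 0.978 over the 29 libraries and 0.839 over the 27 without HI 9 and HI 13, and it was 0.838 in MOD calves alone. ENSBTAG00000047957 had a value of 2.70 in HI 9 and 16.7 in HI 13, against 43.4 to 104 in the other libraries, with a median of 63.3. It was low in the same 2 calves as SCD. Since ENSBTAG00000047957 was picked as the extreme over libraries that include the same calves, its high r and low values follow in part from the choice. Over the 29 libraries, 2082 of the 14164 other genes had an r above 0.7 with SCD, and 16 had one without HI 9 and HI 13. For the gene next most like SCD over the 29 libraries, r decreased from 0.952 to 0.560 without HI 9 and HI 13. The table does not pair this identifier with a name.

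HI 9 and HI 13 held the same number of FASN reads, 6127 each, at totals of 16589647 and 14955943 reads, while their SCD reads (188 and 619) and DGAT1 reads (1346 and 1085) differed.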
